A study of Mus musculus with 24 samples.

Results

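The libraries described here are the 6 libraries of rearranged T cell receptor beta (Tcrb) transcripts, out of 24 libraries in the whole series. The series profiled the 4 T cell receptor chains in thymocytes of C57BL/6 mice of 4 to 12 weeks, with 3 libraries for each chain in each of 2 genotypes. Wild-type mice were compared with mice whose samples are marked Satb1-/-, while the series text speaks of a conditional knockout of Satb1, a gene for a chromatin-organising protein abundant in thymocytes. What drives the deletion is not stated, and the labels name no agent or sorting step for either genotype. The 3 wild-type and 3 knockout Tcrb libraries were chosen by their labels alone, and each holds the same 242 pairs of 22 V segments and 11 J segments, all of which were kept. The tables hold no transcript other than the receptor, so neither Satb1 itself nor markers of thymocytes could be checked in them.

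The variable part of a beta chain is assembled in thymocytes by the RAG recombinase, which first joins a D to a J segment and then a V segment to the DJ join. The locus carries a pair of clusters, each with 1 D segment, a row of J segments and 1 constant region. Trbd1 can join to J segments of either cluster, Trbd2 to those of the second cluster, and most V segments lie far upstream of both. The exception is Trbv31, which lies downstream of the second constant region in the opposite orientation and joins by inversion. Most thymocytes have already been selected for a working beta chain, so the use of a segment in thymocytes reflects both recombination and selection. In RNA from bulk thymocytes, fewer cells with a segment and less RNA per cell cannot be told apart.

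Of the segments in the tables, 22 of 22 V and 11 of 11 J segments matched a gene by symbol on mouse chromosome 6 in the GENCODE annotation of GRCm38. The segment TRBV24 was the 1 listed V segment annotated as a pseudogene. Of the genes annotated as functional, the tables leave out the V gene Trbv21 and the J genes Trbj1-6 and Trbj1-7. The J sequences below are shown because a J segment is told apart from its neighbours by these bases. They are those of the 6 J segments called as different between the genotypes, preceded by Trbj1-1, which was called in 1 of the fits described below, and followed by Trbj2-7, the most used J segment. They are given 5′ to 3′ on the plus strand from the GENCODE transcripts. Capitals mark the bases that encode the phenylalanine-glycine-any-glycine motif, which closes the antigen-contacting loop of the beta chain, searched on the coding strand.
Trbj1-1: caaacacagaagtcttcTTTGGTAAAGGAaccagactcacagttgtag
Trbj1-2: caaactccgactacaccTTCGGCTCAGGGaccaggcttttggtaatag
Trbj1-3: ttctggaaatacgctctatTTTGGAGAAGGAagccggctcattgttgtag
Trbj1-4: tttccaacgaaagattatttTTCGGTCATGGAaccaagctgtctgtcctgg
Trbj1-5: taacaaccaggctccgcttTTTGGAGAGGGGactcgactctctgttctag
Trbj2-3: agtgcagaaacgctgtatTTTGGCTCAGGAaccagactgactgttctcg
Trbj2-5: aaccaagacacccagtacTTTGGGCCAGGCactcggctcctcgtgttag
Trbj2-7: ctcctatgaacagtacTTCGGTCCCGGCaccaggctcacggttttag
The motif was found in 11 of 11 listed J segments and in 0 of the 2 functional J genes that the tables leave out. The listed J segments were 47 to 51 bases long. Trbj1-1 lies at chr6:41533864-41533911, Trbj1-5 at chr6:41535084-41535133, Trbj2-1 at chr6:41542754-41542803 and Trbj2-7 at chr6:41543810-41543856, all TR_J genes on the plus strand. Between the clusters lies Trbd2 at chr6:41542163-41542176, and Trbd1 lies before the first cluster at chr6:41533201-41533212.

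Every value in the tables is a percentage of its library, so a higher share of some segments requires a lower share of others. The word joins below stands for such shares of transcripts, not for counted recombination events. The number of reads behind a library is not stated. The smallest value above 0 was 0.00657%, 0.00809% and 0.00890% in wild-type replicates 1, 2 and 3 and 0.00570%, 0.0133% and 0.0110% in knockout replicates 1, 2 and 3, so the genotypes were not separated by it. Between 236 and 240 of the 242 pairs were above 0 in each library. The 13 pairs listed at 0 in at least 1 library all belonged to TRBV24 (8 pairs) or TRBV30 (5 pairs), the least used V segments. Where above 0, the values of these 13 pairs were whole multiples of the smallest value of their library. That value may stand for 1 counted item, read or clonotype, but counts were not reconstructed. The labels do not say that the replicates are separate mice, so the p-values below refer to these libraries only. The limma p-values also draw on a variance shared across segments, and segments of the same libraries are not independent of each other. Limma p-values come from a t distribution, so they can fall well under 0.1, the smallest p that a permutation of 3 libraries against 3 allows.

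The first comparison asked which J segments were used. Joins to the first cluster took a larger part of the knockout libraries, with 4 of its 5 J segments higher, and TRBJ2-3 and TRBJ2-5 of the second cluster lower. TRBJ1-4 held 8.03%, 7.96% and 8.26% of wild-type replicates 1, 2 and 3 and 10.1%, 11.5% and 9.03% of the knockout replicates. Each knockout library lay above all wild-type libraries, and knockout replicate 2 was the highest (1.26-fold, log2 difference 0.33 ± 0.09 SE, limma adjusted p = 0.0314). TRBJ1-3 held 5.64%, 4.97% and 4.84% in wild type, against 6.85%, 5.86% and 6.18% in the knockout, and TRBJ1-2 6.10%, 5.28% and 4.86% against 7.12%, 6.52% and 6.12%. Neither overlapped between the genotypes, although wild-type replicate 1, the highest of its group for both, almost reached the lowest knockout library for TRBJ1-2. TRBJ1-5, the least used J segment, held 2.68%, 2.68% and 3.22% in wild type against 3.49%, 3.19% and 3.63% in knockout libraries, and wild-type replicate 3 overlapped knockout replicate 2. In the second cluster TRBJ2-3 held 11.5%, 11.4% and 11.4% in wild type, against 9.66%, 10.4% and 9.98% in the knockout. TRBJ2-5 held 11.4%, 11.9% and 13.2% against 9.96%, 10.3% and 11.1%, again with no overlap.

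Of the 11 J segments tested with limma, 6 were called at an adjusted p under 0.05, which is 54.5% (36.4% called higher and 18.2% called lower), with adjusted p of 0.0314 or 0.0365. TRBJ2-1, at 12.1%, 11.9% and 11.6% in wild type against 10.7%, 10.4% and 10.9% in knockout libraries, did not overlap between the genotypes and was not called (adjusted p = 0.0581). TRBJ1-1, TRBJ2-2, TRBJ2-4 and TRBJ2-7 overlapped and were not called, and TRBJ2-2 was the 1 J segment of its cluster whose knockout mean was not below the wild-type mean (6.21% ± 0.466 and 6.34% ± 0.662, SD, n = 3). With libraries of equal replicate number as a block, 7 J segments (63.6%) were called, and the added one was TRBJ1-1 (10.6%, 10.3% and 10.3% in wild type, 11.4%, 13.4% and 10.5% in the knockout, limma adjusted p = 0.0361 with the replicate block). The calls rested on few libraries: leaving out wild-type replicate 2 or knockout replicate 1 left 0, 2 were called without wild-type replicate 3, and 8 were called when knockout replicate 3 was left out.

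**Figure D1:**
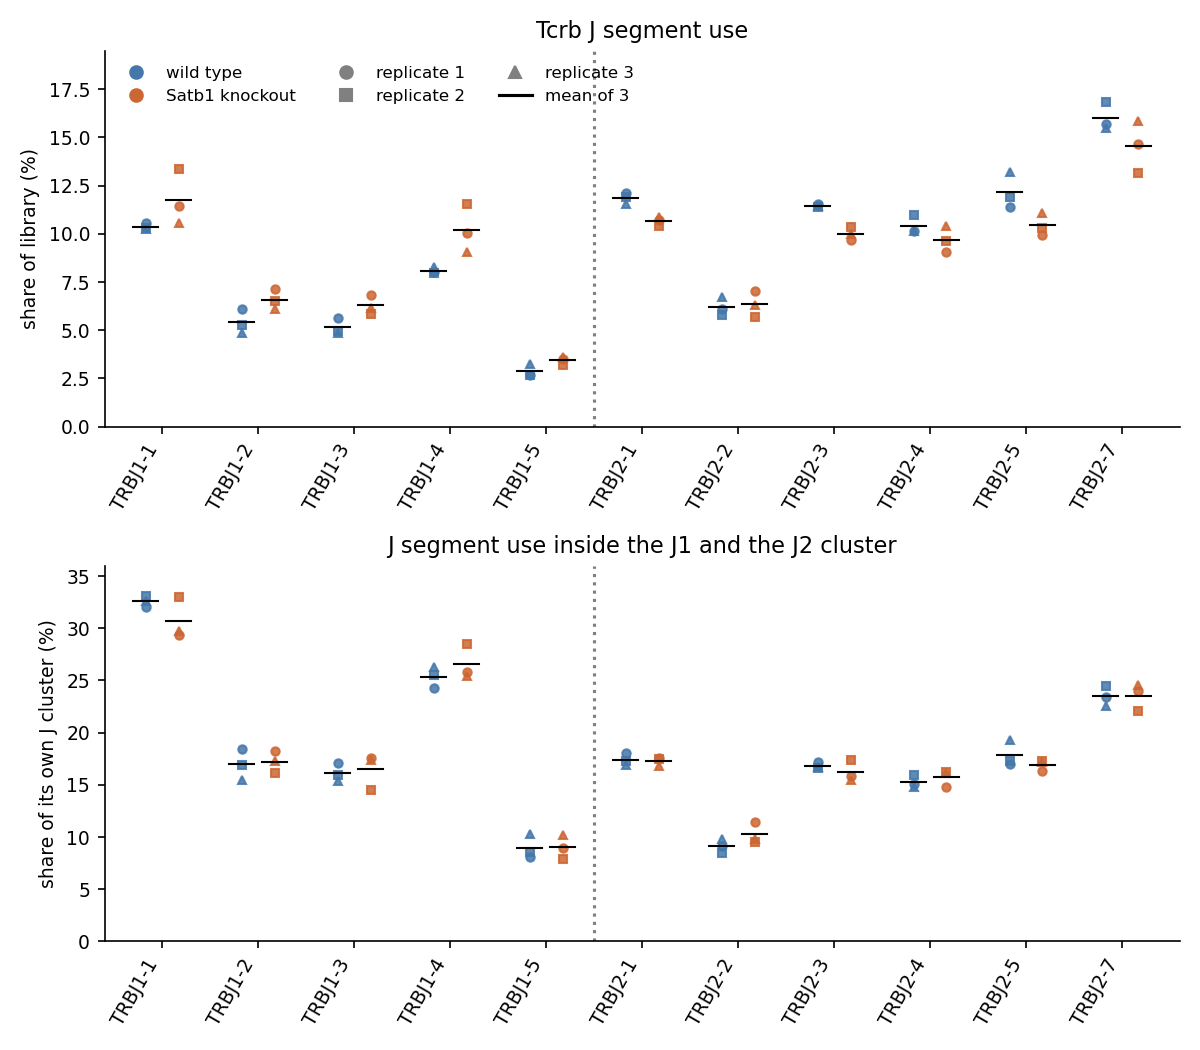
Share of each J segment in percent of its library (top) and in percent of its own J cluster (bottom) for 3 wild-type and 3 knockout libraries, with the replicate number by symbol and the mean of 3 as a bar. In the top panel the knockout points lie above the wild-type points for TRBJ1-2, TRBJ1-3 and TRBJ1-4 and below them for TRBJ2-1, TRBJ2-3 and TRBJ2-5, while in the bottom panel all 11 J segments overlap.

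Seen by cluster, the second J cluster held 67.0%, 68.8% and 68.6% of wild-type and 61.1%, 59.5% and 64.5% of knockout replicates 1, 2 and 3. All 3 knockout libraries lay below all wild-type libraries, and libraries of replicate number 1, 2 and 3 differed by -5.91, -9.25 and -4.06 percentage points (knockout minus wild type). The exact two-sided permutation test gave p = 0.1, the smallest that 3 libraries against 3 allow, and an adjusted p of 0.433 over the 13 single values tested this way. Entropy of J use, which is higher when joins are spread more evenly over the J segments, was 3.34, 3.32 and 3.33 bits in wild type, against 3.39, 3.36 and 3.37 bits in the knockout. It was higher in 3 of 3 knockout libraries (exact permutation p = 0.1, adjusted p = 0.433).

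The use of a J segment inside a cluster was then separated from the use of the cluster. With each J segment taken as a percentage of its own cluster, the groups overlapped for 11 of 11 J segments and limma called 0 of 11 (1 at an unadjusted p under 0.05), also with the replicate block. TRBJ1-4 held 24.3%, 25.5% and 26.3% of first-cluster joins in wild type against 25.8%, 28.5% and 25.4% in knockout libraries. The groups overlapped, and the log2 difference of 0.07 ± 0.08 SE compares with 0.33 for its share of the library. TRBJ2-3 held 17.2%, 16.6% and 16.7% of second-cluster joins in wild type, against 15.8%, 17.4% and 15.5% in the knockout (log2 difference -0.05 ± 0.08 SE). The J segment with an unadjusted p under 0.05 was TRBJ2-2, at 9.14%, 8.43% and 9.80% against 11.5%, 9.56% and 9.79% (log2 difference 0.17 ± 0.08 SE, limma adjusted p = 0.432). The other J segments differed by between -0.09 (TRBJ1-1) and 0.04 (TRBJ2-4) on the log2 scale. A p that misses the threshold does not show that these shares were equal.

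Whether the shift between clusters was seen with each V segment was asked from the percentage of joins to the second cluster within each V segment. Its mean was lower in the knockout for 20 of 22 V segments, with a median difference of -5.50 percentage points over the 22. It was higher for TRBV13-3, with a wild-type mean of 60.9% ± 1.11 and a knockout mean of 62.0% ± 4.92 (SD, n = 3), and the pseudogene TRBV24 (69.3% ± 8.68 and 73.9% ± 9.73). Tested with limma as the log2 ratio of second-cluster to first-cluster joins, 4 of 22 V segments (18.2%) were called, 0 higher and 4 lower. For 10 of the 22 all knockout libraries lay below all wild-type libraries, and for none above. The 22 V segments share the same libraries and together make up the second-cluster share given above. These counts therefore partly restate that share and are not 22 separate results.

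TRBV20 had 64.0%, 68.1% and 64.3% of its joins in the second cluster in wild-type replicates 1, 2 and 3 and 57.0%, 50.4% and 52.1% in the knockout. The gap between the groups exceeded the spread inside the wild type, and the log2 ratio fell by 0.73 ± 0.18 SE (limma adjusted p = 0.00689). TRBV17 had 74.5%, 77.5% and 77.5% in wild type against 64.1%, 69.2% and 66.4% in knockout libraries (log2 difference -0.71 ± 0.17 SE, limma adjusted p = 0.00689). In wild type it had a larger part of its joins in the second cluster than TRBV20, and it had no overlap between the genotypes. TRBV1, the V segment farthest upstream, had 67.7%, 71.8% and 73.0% in wild type, against 59.7%, 54.2% and 63.3% in the knockout (log2 difference -0.75 ± 0.19 SE, limma adjusted p = 0.00689). TRBV4 had 65.4%, 69.5% and 71.6% against 58.8%, 53.1% and 64.0% (log2 difference -0.64 ± 0.19 SE, limma adjusted p = 0.0252). Its knockout libraries were also all below the wild type. TRBV1, TRBV17 and TRBV20 were called in 12 of 12 other settings and TRBV4 in 9 of 12. Without knockout replicate 3, whose share of the second cluster was the nearest to wild type, 11 V segments were called, all lower.

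These 4 V segments were not shown to differ from the others. When each library's own log2 ratio of the clusters was subtracted, limma called 0 of 22 V segments (3 at an unadjusted p under 0.05, with TRBV13-3 and TRBV24 called when the pseudocount was 10 times larger or a variance trend was used). Those of unadjusted p under 0.05 were TRBV13-3 (log2 difference 0.48 ± 0.14 SE, adjusted p = 0.128), TRBV24 (0.69 ± 0.28 SE, adjusted p = 0.221) and TRBV1 (-0.34 ± 0.14 SE, adjusted p = 0.221). Information shared between the V segment and the cluster of a join is 0 when they are independent. It was 0.00315, 0.00561 and 0.00606 bits in wild-type libraries, against 0.00286, 0.00712 and 0.00596 bits in knockout libraries. The groups overlapped (exact permutation p = 0.8, adjusted p = 1.0).

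**Figure D2:**
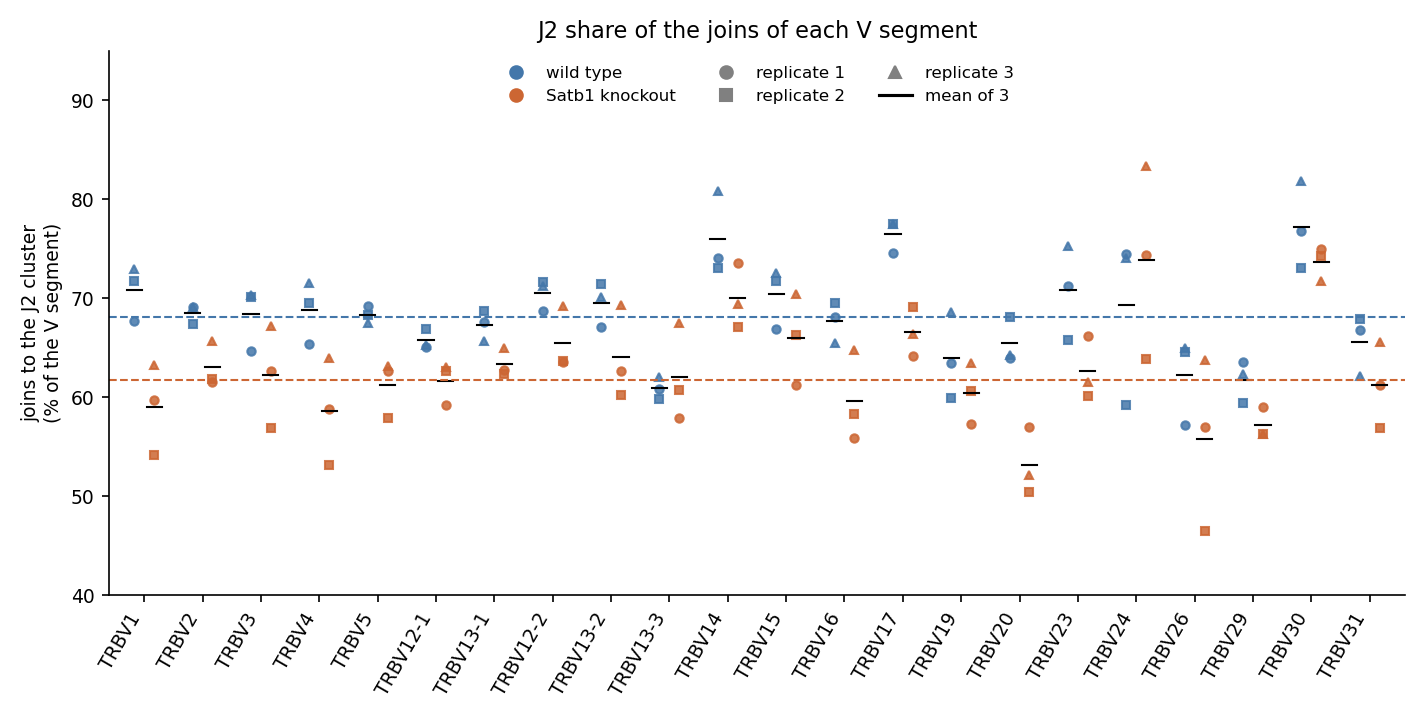
Percentage of the joins of each V segment that used the second J cluster, in chromosomal order of the V segments, for each of 6 libraries, with means of 3 as bars and the mean of the whole libraries of each genotype as dashed lines (the axis starts at 40%). The knockout mean is below the wild-type mean for 20 of 22 V segments. No overlap is seen for 10 of them, among these TRBV20, TRBV17, TRBV1 and TRBV4.

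V segment use was compared next. No V segment passed in the fit without the replicate block (limma, 0 of 22, 0%, with 3 at an unadjusted p under 0.05). Fitted with the replicate block, TRBV2 and TRBV20 were higher and TRBV15 was lower in the knockout, which makes 3 of 22 (13.6%, or 9.09% higher and 4.55% lower). TRBV20 held 3.08%, 3.29% and 2.71% of wild-type replicates 1, 2 and 3 and 4.21%, 4.72% and 5.19% of the knockout replicates. Every knockout library lay above every wild-type library (log2 difference 0.63 ± 0.16 SE, limma adjusted p = 0.0740, and 0.0345 with the replicate block). TRBV15 held 5.74%, 5.73% and 5.35% in wild type against 4.28%, 3.71% and 3.71% in knockout libraries (log2 difference -0.52 ± 0.15 SE, limma adjusted p = 0.0740, and 0.0345 with the block). TRBV2 held 4.30%, 4.04% and 3.92% in wild type, against 6.54%, 6.90% and 4.74% in the knockout. Knockout replicate 3 was the lowest of its group but still above all wild-type libraries (log2 difference 0.55 ± 0.18 SE, limma adjusted p = 0.108, and 0.0410 with the block). A variance trend in the fit also gave 3 calls, and TRBV2 was called alone without knockout replicate 3. Trbv2 lies at chr6:41047340-41047995, Trbv15 at chr6:41141188-41141658 and Trbv20 at chr6:41188273-41188977, all TR_V genes on the plus strand.

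Among the other V segments of at least 5% in either genotype, TRBV29 held 4.72%, 3.92% and 4.73% in wild type against 5.27%, 4.99% and 5.78% in knockout libraries, with no overlap and no call (limma adjusted p = 0.592). TRBV13-2 held 9.76%, 8.86% and 9.54% in wild type, against 8.52%, 7.49% and 9.70% in the knockout, and TRBV13-1 held 8.11%, 7.38% and 8.99% against 7.73%, 5.12% and 7.02%. Both overlapped between the genotypes. Segments of the Trbv13 family, with Trbv29 and Trbv1, make up most beta chains of invariant natural killer T cells. TRBV12-1 held 9.07%, 9.29% and 8.77% in wild type against 9.98%, 9.89% and 7.61% in knockout libraries, so knockout replicate 3 was the lowest of all 6 and the other 2 the highest. Genes of these families are close in sequence, and how reads were assigned between them is not stated: aligned transcripts matched in 90.6% of bases for Trbv13-2 and Trbv13-3, 88.6% for Trbv13-1 and Trbv13-2 and 88.3% for Trbv12-1 and Trbv12-2.

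In some V segments, among them the 3 given first here, the replicate number separated the libraries more than the genotype did. TRBV5 held 7.85%, 6.71% and 11.2% in wild-type replicates 1, 2 and 3 and 8.0%, 6.64% and 11.8% in the knockout replicates. The same order recurred in both genotypes, with replicate 3 the highest. TRBV31, the segment that joins by inversion, held 5.41%, 3.15% and 3.12% in wild type, against 4.48%, 2.69% and 2.68% in the knockout, so replicate 1 was the highest in both. TRBV16 held 5.81%, 7.12% and 6.34% against 5.35%, 6.98% and 5.71%, with replicate 2 highest and replicate 1 lowest in both. These 3 were picked for this pattern after their values were seen, and none was called with or without the block. Replicates of TRBV1, TRBV4, TRBV14, TRBV17, TRBV23, TRBV24 and TRBV29 also kept their order across the genotypes. Those of the remaining V segments did not. TRBV3 ranged from 6.10% to 7.80% in wild type and from 5.53% to 10.1% in the knockout, with knockout replicate 2 at the top. TRBV17 ranged from 4.20% to 6.05% and from 5.24% to 7.02%, and overlapped.

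The remaining V segments (TRBV1, TRBV4, TRBV12-2, TRBV13-3, TRBV14, TRBV19, TRBV23, TRBV24, TRBV26 and TRBV30) overlapped between the genotypes and were not called. TRBV24 and TRBV30 had means under 1% in both genotypes. The 5 largest V segments together held 42.4% of the wild-type and 40.6% of the knockout mean. Entropy of V use was 4.21, 4.22 and 4.11 bits in wild type against 4.21, 4.19 and 4.15 bits for knockout libraries (exact permutation p = 0.9, adjusted p = 1.0).

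Summed by position, Trbv23 to Trbv30, the V segments nearest the D segments on the upstream side, held 9.66%, 8.94% and 7.88% in wild type against 10.2%, 9.85% and 10.1% in knockout libraries. All 3 knockout libraries were above the wild type (exact permutation p = 0.1, adjusted p = 0.433). The difference of 1.23 percentage points was 0.759 without wild-type replicate 3, and with Trbv31 left out of the libraries the exact permutation p was 0.2. Most of the difference lay in TRBV29, at 0.889 percentage points. TRBV23, TRBV26 and TRBV30 differed by 0.197, 0.177 and 0.0267 and TRBV24 by -0.0598, all with overlap. Trbv12 and Trbv13 together held 34.4% ± 0.840 and 32.0% ± 2.00 (SD, n = 3, exact permutation p = 0.2, adjusted p = 0.65). Trbv1 to Trbv5 held 28.0% ± 1.59 and 29.7% ± 2.33, and Trbv14 to Trbv20 held 24.9% ± 1.87 and 25.0% ± 1.16, with exact permutation p of 0.4 and 1.0 for n = 3 in each group. The 21 upstream V segments share the same libraries. Over them, the log2 share in wild type and the start coordinate had a Pearson correlation of -0.489 and a Spearman correlation of -0.557. Segments farther upstream tended to be used more. The log2 difference between the genotypes had correlations of 0.140 and 0.268 with the start coordinate.

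**Figure D3:**
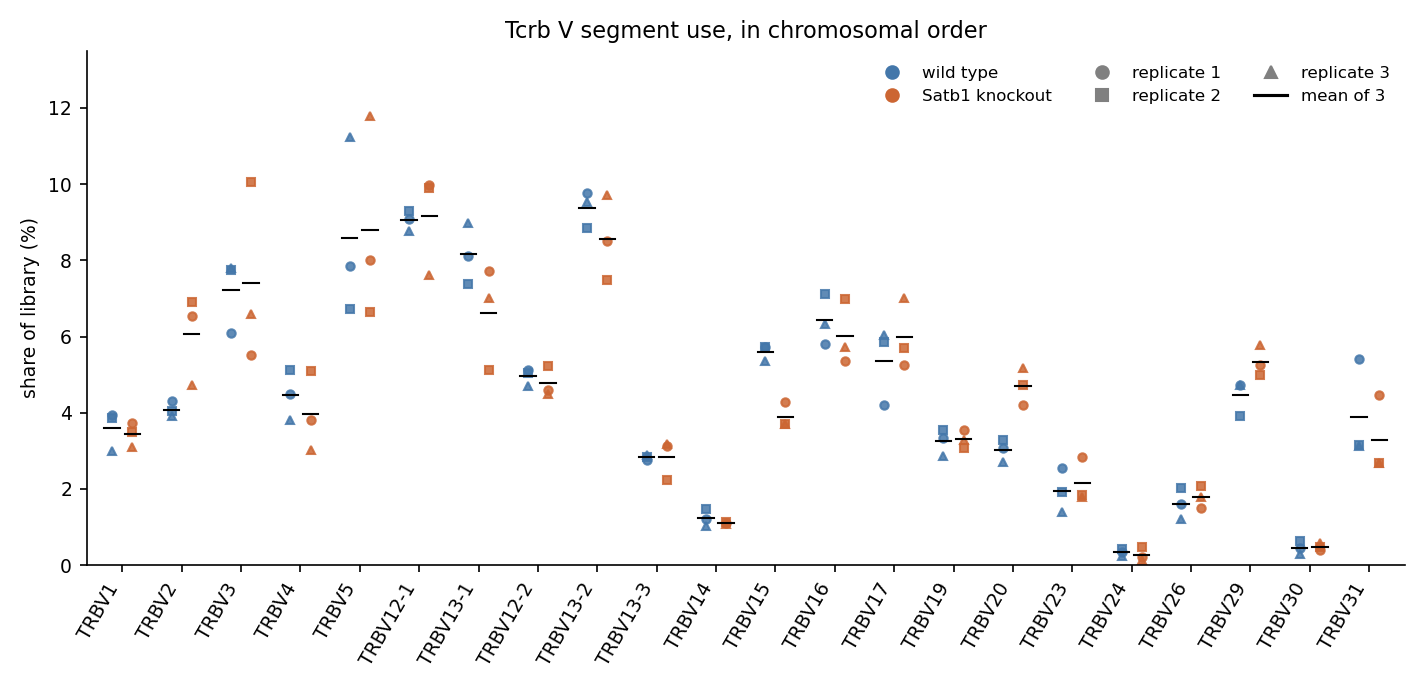
Share of each V segment in percent of its library, in chromosomal order, for 3 wild-type and 3 knockout libraries, with means of 3 as bars. TRBV2, TRBV20 and TRBV29 are higher and TRBV15 is lower in every knockout library than in every wild-type library. The replicates of TRBV5 and TRBV31, among other V segments, keep their order across the genotypes.

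At the level of V-J pairs limma called 0 of 209 pairs (0%, with 25 at an unadjusted p under 0.05), also with the replicate block. The 3 pairs of smallest p all combined segments described above. TRBV20 with TRBJ1-4 held 0.191%, 0.210% and 0.231% in wild type, against 0.456%, 0.559% and 0.560% in the knockout (2.45-fold, limma adjusted p = 0.0679). TRBV20 with TRBJ1-2 held 0.177%, 0.154% and 0.205% against 0.456%, 0.239% and 0.538% (2.16-fold, adjusted p = 0.226). TRBV2 with TRBJ2-2 held 0.217%, 0.186% and 0.303% against 0.536%, 0.638% and 0.483% (2.35-fold, adjusted p = 0.0980). In all 3 pairs each knockout library exceeded each wild-type library, and the folds are on the scale of log2(percent + 0.00570). TRBV20 with TRBJ1-4 and TRBV2 with TRBJ2-2 were called without wild-type replicate 3, the 2 pairs called there, and 2 pairs were also called with a pseudocount 10 times larger or a variance trend.

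The direction of most pairs went with the cluster of their J segment. Most pairs of TRBV2, TRBV20 and TRBV15 went with their V segment, also where the cluster went the other way. Of 91 pairs with a first-cluster J segment, the knockout mean was above the wild-type mean in 69 and below in 22, and 15 had every knockout library above every wild-type library against 0 below. Of 118 pairs with a second-cluster J segment, 37 were above and 81 below, with 6 and 17 free of overlap. Over all 209 pairs 106 were above and 103 below, with 21 and 17 free of overlap. TRBV2 was higher with 11 of 11 J segments and TRBV20 with 10 of 11, while TRBV15 was lower with 10 of 11. Median log2 differences over the pairs of a segment were 0.70 for TRBV2, 0.71 for TRBV20 and -0.52 for TRBV15, against 0.01 over all pairs. These counts describe the libraries and share the V and J totals already given.

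To ask whether V and J segments were combined independently, each pair was compared with the product of its V and J shares in the same library, for 212 pairs whose mean product was at least 0.1%. The departure is the log2 ratio of the pair's share to that product, so 0 means that knowing the V segment says nothing about the J segment. Most pairs lay close to the product: the median size of the mean departure over 6 libraries was 0.140, and the mean departures ran from -1.08 to 0.50. Pair tables built from V and J shares alone would have misplaced 7.17%, 8.27% and 9.11% of joins in wild-type replicates 1, 2 and 3 and 6.19%, 10.8% and 7.84% in the knockout. Knockout replicate 2, which has the largest smallest value above 0, was the highest and knockout replicate 1, which has the smallest, the lowest (8.18% ± 0.974 and 8.29% ± 2.35, SD, n = 3, exact permutation p = 1.0). The part of that coarseness in the misplaced share was not tested.

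Neither genotype nor their difference gave a departure that passed the test. Limma called 0 of 212 pairs (0%) against a departure of 0 in wild type (32 at an unadjusted p under 0.05, and 6 called of the 83 pairs with a mean product of at least 0.5%), 0 of 212 (0%) in the knockout (28) and 0 of 212 (0%) between the genotypes (15). The 3 pairs of smallest p between the genotypes were TRBV14 with TRBJ2-3, TRBV1 with TRBJ2-2 and TRBV26 with TRBJ1-1. TRBV14 with TRBJ2-3 departed by -0.48, -1.15 and -0.85 in wild type and by -0.05, 0.92 and 0.16 in knockout libraries (difference 1.17 ± 0.29 SE, limma adjusted p = 0.476). TRBV1 with TRBJ2-2 departed by 0.25, 0.69 and 0.53 against -0.12, -0.42 and -1.29 (difference -1.10 ± 0.30 SE, limma adjusted p = 0.476). TRBV26 with TRBJ1-1 departed by 0.55, 0.43 and 0.49 against -0.05, 0.0026 and -0.10 (difference -0.54 ± 0.15 SE, limma adjusted p = 0.476). In each of the 3 pairs the groups were apart, yet the difference did not hold up over 212 pairs.

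Departures were correlated only weakly to moderately between libraries. Over the 212 pairs, which share V and J totals inside a library, the Pearson correlation of departures was between 0.219 and 0.396 for the 3 comparisons of wild-type libraries, between 0.221 and 0.349 for the knockout libraries and between 0.0620 and 0.447 across the genotypes. The log2 V shares of the same libraries correlated between 0.930 and 0.985 over the 22 V segments. A V share sums over many pairs and varies widely among segments, so these r cannot be set directly against those of departures. How far error in small pair shares lowered the r of departures was not tested.

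Since neither genotype stood out, the mean departure over all 6 libraries was tested against 0, a comparison chosen after the data were seen. Limma called 6 of 212 pairs (2.83%), 0 above and 6 below the product. Over the 83 pairs with a mean product of at least 0.5%, 3 were called above and 5 below it. TRBV15 with TRBJ1-2 departed by -0.81, -1.19 and -0.46 in wild type, and by -0.44, -2.07 and -1.50 in the knockout, 0.47 of the product on average (adjusted p = 0.0458). TRBV17 with TRBJ1-5 departed by -1.89, -1.58 and -0.44 and by -0.40, -0.58 and -0.81, which is 0.52 of the product (limma adjusted p = 0.0458). Both were below the product in 6 of 6 libraries. TRBV12-1 with TRBJ1-5 (mean departure -0.65), TRBV5 with TRBJ1-2 (-0.52) and TRBV20 with TRBJ2-2 (-0.73) were also below it in 6 of 6, and TRBV17 with TRBJ1-2 (-0.67) in 5 of 6. In all, 14 pairs were below and 9 above the product in all 6 libraries. Of the 9 above, TRBV17 with TRBJ2-1 was the highest at 0.41, which was not called, and like the other pairs above the product it was chosen after its values were seen. The count of 6 was not stable: 0 pairs were called without wild-type replicate 1, wild-type replicate 2 or knockout replicate 2, 1 without knockout replicate 3, and 2 without wild-type replicate 3 or knockout replicate 1.

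**Figure D4:**
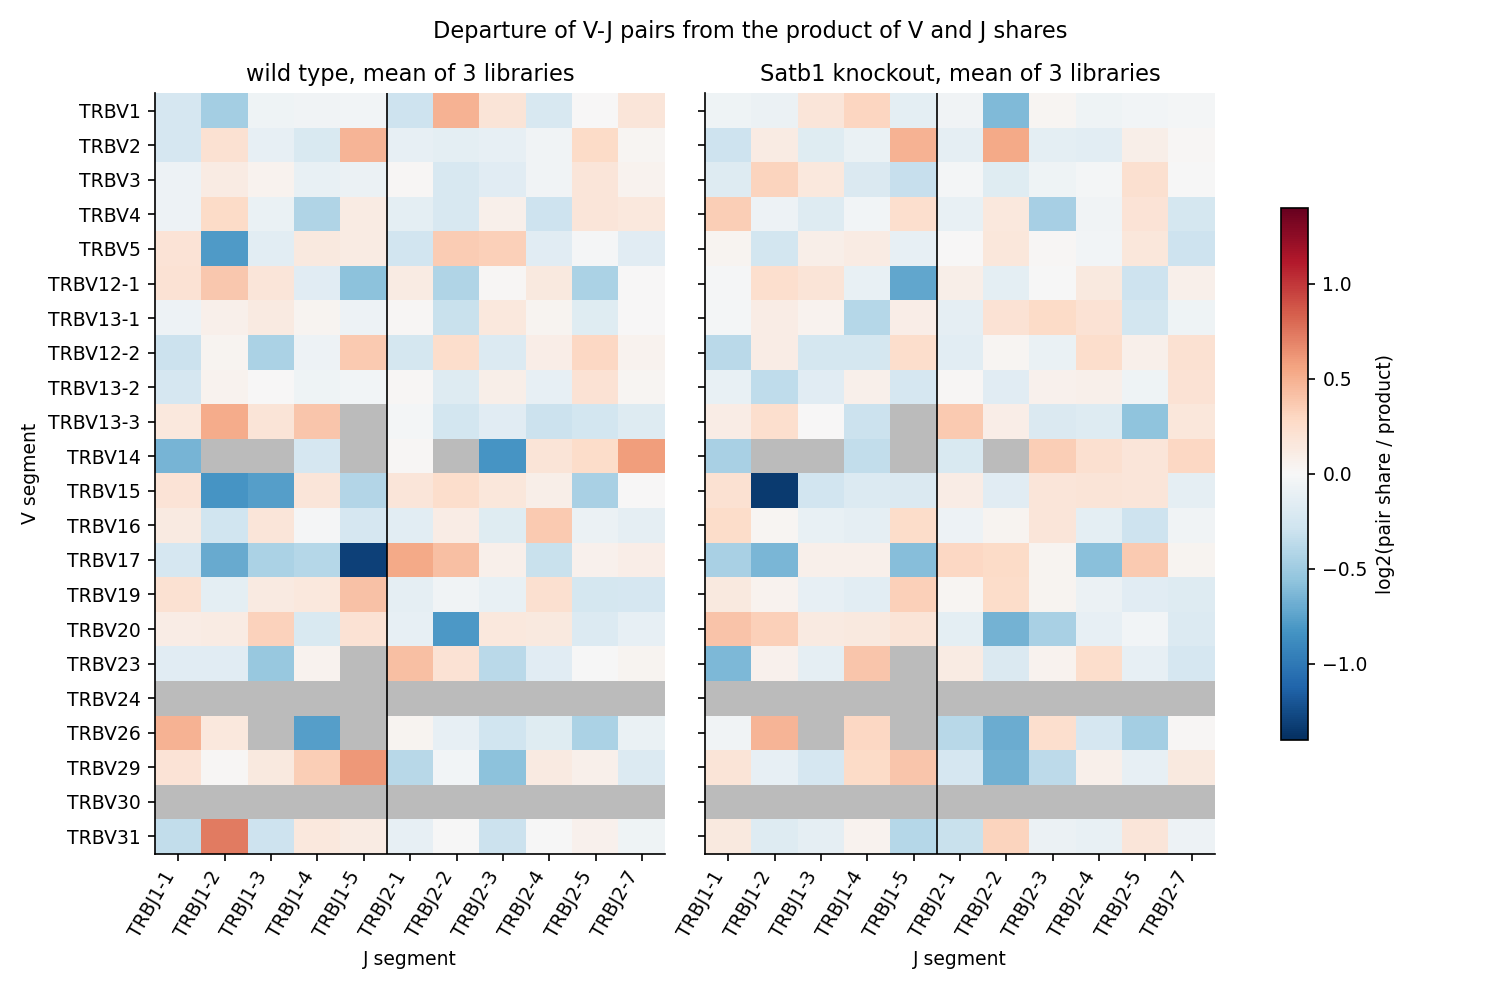
Mean departure of each V-J pair from the product of its V and J shares (log2, colour scale) over 3 wild-type (left) and 3 knockout (right) libraries, with V segments in chromosomal order, a line between the J clusters and pairs with a mean product under 0.1% in grey. TRBV15 with TRBJ1-2 and TRBV17 with TRBJ1-5 are below 0 in both panels, TRBV17 with TRBJ1-5 less so in the knockout, and most pairs are pale.

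The balance between the clusters was then compared among V segments. The log2 ratio of second-cluster to first-cluster joins of each V segment, minus that of its library, was tested against 0 over the 6 libraries, again a comparison chosen after the data were seen. Limma called 10 of 22 V segments (45.5%), 6 with more (27.3%) and 4 with fewer (18.2%) joins to the second cluster than their library. TRBV14 stood at 0.48, 0.29 and 0.92 in wild type and at 0.81, 0.46 and 0.30 in knockout libraries (mean 0.54 ± 0.09 SE, limma adjusted p = 0.000609). TRBV17 stood at 0.52, 0.64 and 0.65 and at 0.19, 0.60 and 0.12 (mean 0.45 ± 0.08 SE, limma adjusted p = 0.000609), above 0 in 6 of 6 libraries like TRBV14. TRBV30, at a mean of 0.69 ± 0.09 SE (limma adjusted p = 0.000218), was the highest, in a segment that held about 0.459% of wild-type libraries.

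On the other side, TRBV29 stood at -0.22, -0.59 and -0.40 in wild type and at -0.13, -0.20 and -0.50 in the knockout (mean -0.34 ± 0.08 SE, limma adjusted p = 0.00369). TRBV26 (mean -0.36 ± 0.09 SE, adjusted p = 0.00774) and TRBV20 (-0.34 ± 0.08 SE, limma adjusted p = 0.00369) were likewise below 0 in 6 of 6 libraries. TRBV20 stood at -0.20, -0.05 and -0.28 in wild type against -0.25, -0.53 and -0.74 in knockout libraries, which overlapped, and on this scale the difference between the genotypes was not called (limma adjusted p = 0.296). TRBV14, TRBV17, TRBV20, TRBV26 and TRBV29 were called in 12 of 12 other settings. TRBV12-2 (mean 0.20) and TRBV15 (0.21) were called with smaller means. TRBV13-3 (mean -0.22) was called too, but stood at -0.39, -0.57 and -0.42 in wild type and at -0.19, 0.07 and 0.19 in the knockout, so 2 knockout libraries were above 0. TRBV24, also called, had a mean of 0.05 in wild type and of 0.75 in the knockout, and its mean of 0.40 turned to -0.0237 when the pseudocount was 10 times larger.

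**Figure D5:**
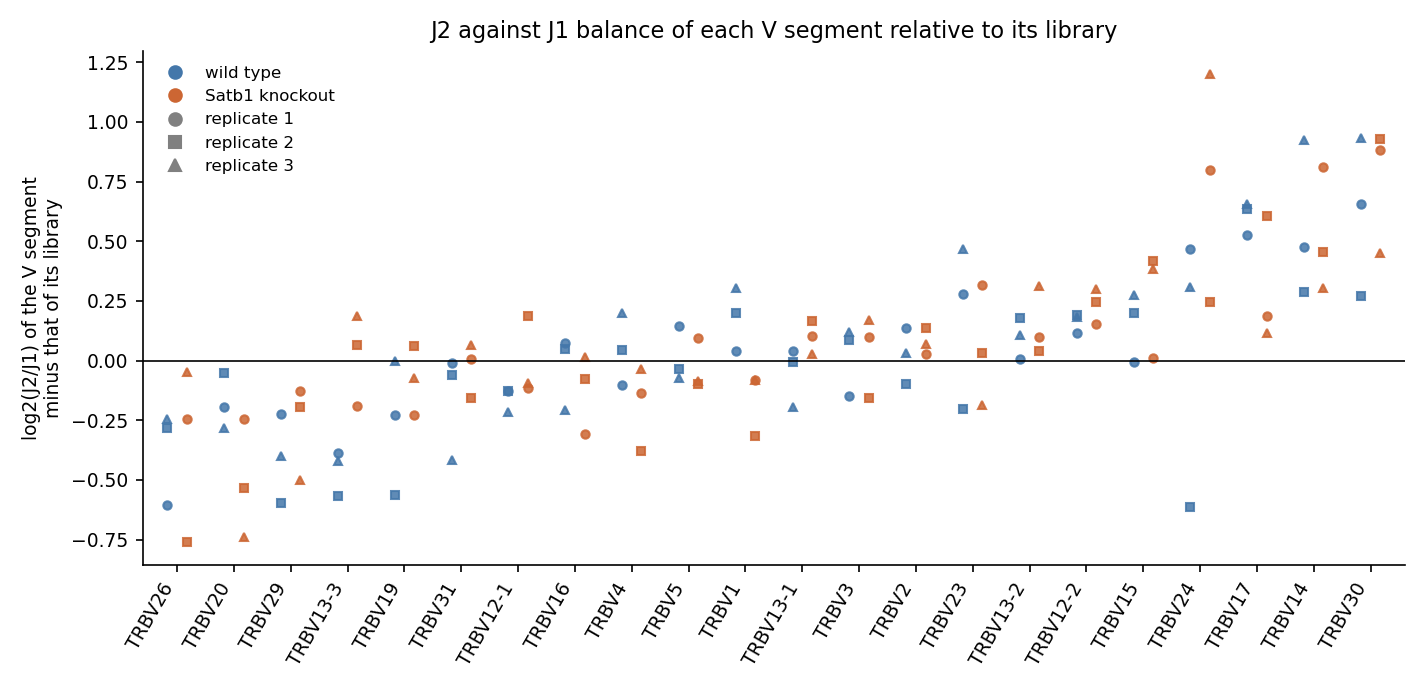
Log2 ratio of second-cluster to first-cluster joins of each V segment minus that of its library, for 3 wild-type and 3 knockout libraries, with V segments ordered by their mean over the 6 libraries. TRBV26, TRBV20 and TRBV29 lie below 0 and TRBV17, TRBV14 and TRBV30 above 0 in 6 of 6 libraries.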

How the data were processed

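Total RNA of thymocytes was reverse transcribed with template switching, amplified between the adaptor and the Tcrb constant region, and sequenced in pairs, per the labels' protocols. Reads were trimmed with fastp, per the submitters' processing notes. For the aligner, the V-J caller and the build, the labels and headers name nothing (not given in the sources used here). The deposited tables give each V-J pair as a percent of its library, and whether reads or clonotypes were counted is not stated. The authors' total row and column were dropped. Because PCR copies are unknown and counts were not reconstructed, no interval for counting error was given.

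Values were analysed as log2(percent + 0.00570), where the pseudocount is the smallest value above 0 in any of the 6 libraries, after a filter at a mean of 0.1%. Limma 3.58.1 in R 4.3.3 compared 3 wild-type with 3 knockout libraries, with Benjamini-Hochberg adjustment within each kind of feature and a threshold of 0.05. Limma was also used for departures and cluster ratios. Its SE combines the spread of a segment with that of the other segments. With the replicate block the SE was the same for every segment in J use inside clusters (0.0660) and in cluster ratios (0.180). The 13 single values had exact two-sided permutation tests over 20 arrangements, adjusted over the 13. Python 3.11.15 and scipy 1.17.1 were used.

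Libraries of equal replicate number deviated together from their group means in V shares (r = 0.767, 0.610 and 0.489 over 22 segments) and pair shares (0.375, 0.250 and 0.324 over 209). The highest r between unlike numbers was -0.124 for V and -0.0629 for pair shares. Deviations from a group mean sum to 0, so positive r of equal numbers push those of unlike numbers down. The contrast between them is therefore not independent support for the block. J shares gave 0.575, 0.159 and 0.293 over 11, but unlike numbers reached 0.294, so only replicate number 1 stood clear of them. All these r of equal numbers were over 0.1, so block values are given beside those results where they change a call. Cluster ratios and departures did not meet this criterion (every r over 0.1). Named were all called J and V segments, V segments of at least 5%, Trbv31, and the 3 pairs of smallest p where none was called. The segments, classes and tests were chosen with earlier results of these data known. Other pseudocounts, filters, a variance trend, centring, the block and leaving out each library were tried.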

Additional observations from a re-analysis of the deposited data

How the results depend on the processing

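The design had 3 libraries a group, and counts of calls moved with single libraries. Leaving out 1 library at a time gave 0 to 8 J segments, 0 to 1 V segments, 0 to 2 pairs, 3 to 11 cluster ratios, 0 to 1 departures in wild type and in the knockout, and 0 to 2 departures over both genotypes. With the replicate block, calls numbered 7 for J segments, 3 for V segments, 0 for pairs, 8 for cluster ratios, 2 for wild-type and 1 for knockout departures, and 10 for departures over both genotypes; the block changed none of the counts for J use inside clusters, cluster ratios relative to the library or departures that differ between genotypes. A variance trend gave 3 V segments, 2 pairs, 7 cluster ratios, 2 cluster ratios relative to the library and 0 departures over both genotypes. A pseudocount 10 times larger gave 2 pairs, 7 cluster ratios, 2 relative to the library and 2 wild-type departures, and turned TRBV24 to -0.0237. A filter of 0.5% gave 1 V segment, 8 cluster ratios, 1 relative to the library and 6 wild-type departures, no filter gave 0 departures over both genotypes, and centring gave 2 V segments. The cause of these changes was not tested.

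Single values that changed sign, as knockout minus wild type without 1 library, ranged from -0.664 to 1.14 percentage points for Trbv14 to Trbv20 (-0.0631 without Trbv31), from -1.21 to 0.143 for Trbv31, from -0.0291 to 0.0267 bits for V entropy, from -0.00991 to 0.00971 bits for information between V and J, from -0.000528 to 0.00160 bits between V and cluster, from -0.00938 to 0.00810 bits inside clusters (-0.000414 with the lowest pairs set to 0), and from -1.17 to 1.15 percentage points for joins misplaced by the product. The J2 cluster share kept its direction, from -7.81 to -5.33 percentage points.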
